A study of Mus musculus with 98 samples.

Results

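The genes described here encode the voltage-gated sodium and calcium channels of the mouse: the pore-forming subunits, the auxiliary subunits that accompany them, and the gamma family, most of whose members serve AMPA receptors. They were chosen by name, as every symbol of the form Scn followed by a number and a or b, or Cacna, Cacnb, Cacng or Cacna2d followed by a number, with at least 10 counts in at least 3 libraries of each of the 6 deposited count tables. Of 40 such symbols, 32 met the rule, among 12901 genes of any name that did so. The 32 comprise 5 sodium channel pores (Scn1a, Scn2a, Scn3a, Scn7a, Scn8a), 4 sodium channel beta subunits (Scn2b, Scn3b and Scn4b among them), 8 calcium channel pores (L type Cacna1c and Cacna1d; P/Q, N and R type Cacna1a, Cacna1b and Cacna1e; T type Cacna1g, Cacna1h and Cacna1i), 4 alpha2delta subunits, 4 calcium channel beta subunits and 7 gamma genes (Cacng2 to Cacng8). The other 8 symbols, Cacna1f, Cacna1s, Cacng1, Scn4a, Scn9a, Scn10a and Scn11a among them, missed the rule in at least 1 table.

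The study measured RNA by bulk sequencing in 98 mouse libraries. Primary hippocampal neurons from CD1 embryos received the virus PhP.eB carrying upACSS2 or the empty vector on culture day 5 for 48 hours. Acss2 makes acetyl-CoA from acetate, and upACSS2 is the label for its raised expression. On day 7 the cultures received hAD-tau, the tau preparation named so in the labels, or PBS, and RNA was taken on day 9 or day 21, with 3 libraries in each of the 8 resting groups. The same 4 combinations of virus and treatment were also stimulated at day 21, 3 libraries each, with an agent that the labels do not name. A set without virus held 4 hAD-tau and 3 PBS libraries at day 21. Male C57BL6 mice received the virus into the retro-orbital sinus. The aged mice, 12 per virus, were 22 to 23 months old, with whole hippocampus taken 30 minutes after a remote memory recall. For them the labels give an age of 21 to 22 months at injection and 2 months with the virus. The 10-month mice, 6 with upACSS2 and 5 with vector, gave dorsal hippocampus 2 weeks after the virus and 30 minutes after fear conditioning. PS19 males carry a mutant human tau transgene driven by the mouse prion promoter, and all PS19 groups carry it, treated and control alike. They were injected at 2.5 months and sampled 1 or 6 months later, 5 per group, 30 minutes after a recall test. Their ages at sampling were 3.5 months and 8.5 to 9 months. Tissue was dorsal hippocampus except in the upACSS2 group at 1 month, labelled whole hippocampus, so virus and tissue cannot be told apart at that time.

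Sodium channel pores open on depolarisation and carry the rising phase of the action potential. Scn2a and Scn3a are prominent in immature brain, Scn1a is known above all from parvalbumin interneurons and Scn8a from the axon initial segment and nodes. Calcium channel pores turn depolarisation into calcium entry: P/Q and N type channels trigger transmitter release, L type channels signal to the nucleus, and T type channels open near rest and favour bursting. Beta and alpha2delta subunits carry the pores to the membrane, and the transmembrane AMPA receptor regulatory proteins (TARPs), of which Cacng2, Cacng3, Cacng4 and Cacng8 encode the classical members, carry AMPA receptors to the synapse despite their channel-derived names.

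Total counts ranged from 5075099 to 39985460 per library over the 6 tables. Acss2 lay at 40.1 to 57.9 CPM (counts scaled to library size) in cultures with vector and at 1489 to 5462 CPM in cultures with upACSS2. In mice the viruses overlapped in aged animals (39.5 to 53.7 CPM with vector, 46.5 to 61.0 with upACSS2) and in PS19 mice at 1 month (51.7 to 66.1 and 60.2 to 1462), but not in 10-month mice (41.9 to 48.2 and 49.6 to 59.2). Some treatment entries in the labels go against the sample titles, and the groups follow the titles. In the 24 resting libraries the microglial markers Cx3cr1 and C1qa reached at most 1.98 and 3.39 CPM and the endothelial marker Cldn5 at most 0.107 CPM. The 7 cultures without virus held more of the first pair (3.55 to 61.3 and 4.75 to 95.6 CPM), with Cldn5 at 0. The labels do not say that replicates came from separate cultures, so p-values measure only the spread between these libraries, which may be technical. The sodium channel pores are paralogs, and how reads matching several genes were counted is not given in the sources used here.

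On the genome (GRCm38, GENCODE annotation), 4 of the 5 sodium channel pores sit in 1 stretch of chromosome 2: Scn3a at chr2:65457118-65567627 on the minus strand, Scn2a at chr2:65620771-65767447 on the plus strand, Scn1a at chr2:66270778-66440840 and Scn7a at chr2:66673425-66784914, both on the minus strand. Neighbours at 53.14 kb, Scn3a and Scn2a are farther from Scn1a, which lies 503.3 kb beyond Scn2a. Scn8a stands alone at chr15:100869858-101045938. Other close neighbours were Scn2b and Scn4b (8.324 kb apart on chromosome 9), Cacng7, Cacng8 and Cacng6 in that order on chromosome 7 (gaps of 22.46 and 8.546 kb), Cacna1c and Cacna2d4 (40.11 kb, chromosome 6) and Cacng4 and Cacng5 (80.05 kb, chromosome 11).

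The promoter windows of 4 genes are shown because the day 9 and day 21 libraries of these genes did not overlap: Scn2b and Scn1a were higher at day 21, and Cacna1b and Cacna2d3 lower. Each runs from 250 bases before to 50 bases after the RefSeq start (GRCm38.p6), 5′ to 3′ on the gene's strand. Capitals mark an E-box (CAGCTG) or a GC-rich SP-type motif (GGGGCGGGG). The windows of Scn2b and Scn1a hold neither.
Scn2b, chr9:45117626-45117925, plus strand: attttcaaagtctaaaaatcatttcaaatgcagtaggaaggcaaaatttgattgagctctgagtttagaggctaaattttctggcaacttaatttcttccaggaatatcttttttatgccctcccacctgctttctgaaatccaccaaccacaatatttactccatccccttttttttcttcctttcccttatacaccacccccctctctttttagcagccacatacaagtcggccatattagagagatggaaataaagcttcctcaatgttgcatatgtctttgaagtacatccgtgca
Scn1a, chr2:66440788-66441087, minus strand: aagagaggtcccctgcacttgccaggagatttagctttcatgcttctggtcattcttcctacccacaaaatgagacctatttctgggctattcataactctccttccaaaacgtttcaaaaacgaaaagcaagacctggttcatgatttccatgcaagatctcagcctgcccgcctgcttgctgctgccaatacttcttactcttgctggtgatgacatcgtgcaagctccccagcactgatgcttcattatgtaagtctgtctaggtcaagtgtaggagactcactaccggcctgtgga
Cacna1b, chr2:24763103-24763402, minus strand: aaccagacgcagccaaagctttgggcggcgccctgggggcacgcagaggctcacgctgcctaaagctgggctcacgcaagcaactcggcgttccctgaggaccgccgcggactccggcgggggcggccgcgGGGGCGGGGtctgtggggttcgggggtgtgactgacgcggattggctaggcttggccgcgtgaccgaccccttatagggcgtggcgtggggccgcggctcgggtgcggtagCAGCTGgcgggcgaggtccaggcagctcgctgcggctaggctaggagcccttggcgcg
Cacna2d3, chr14:29721815-29722114, minus strand: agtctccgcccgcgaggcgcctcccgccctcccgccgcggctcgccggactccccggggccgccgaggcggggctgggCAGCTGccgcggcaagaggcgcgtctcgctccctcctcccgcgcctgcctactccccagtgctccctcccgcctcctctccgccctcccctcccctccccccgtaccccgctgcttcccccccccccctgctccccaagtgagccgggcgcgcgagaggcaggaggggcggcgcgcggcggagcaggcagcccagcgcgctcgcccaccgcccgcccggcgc

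Base composition differed widely among these windows. GC content was 38.3% for Scn2b and 47.3% for Scn1a, against 72.3% for Cacna1b and 81.3% for Cacna2d3, but the window of Cacna2d2, which also rose, was 75.7% GC. The windows of Cacnb4, which rose, were at 49.7%, 69.7% and 78.3%, and those of Cacna1d, which fell, at 87.3% and 40.3%. A relation of GC content to the direction of change was not tested. Over the 35 windows found for 24 of the 32 genes the median was 59.7%, against 52.7% over all 32851 windows of that length. The E-box CAGCTG, searched on both strands, was in 11 of the 35 windows (31.4%, of 10 genes) and in 16.3% of all windows, and the SP-type motif was in 11.4% of both. The cyclic AMP response element TGACGTCA was in none of the 35 and in 1.79% of all windows, and the AP-1 motif TGANTCA was in 1 (Cacng5) and in 7.81% of all. The EGR motif GCGTGGGCG was in 1 (Scn7a) and in 0.612% of all. Both blocks of the RE1 element searched, TTCAGCACC and GGACAGCGC, were in 0 of the 35 and in 0.371% and 0.405% of all windows. A match is only these letters in this window.

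**Figure D1:**
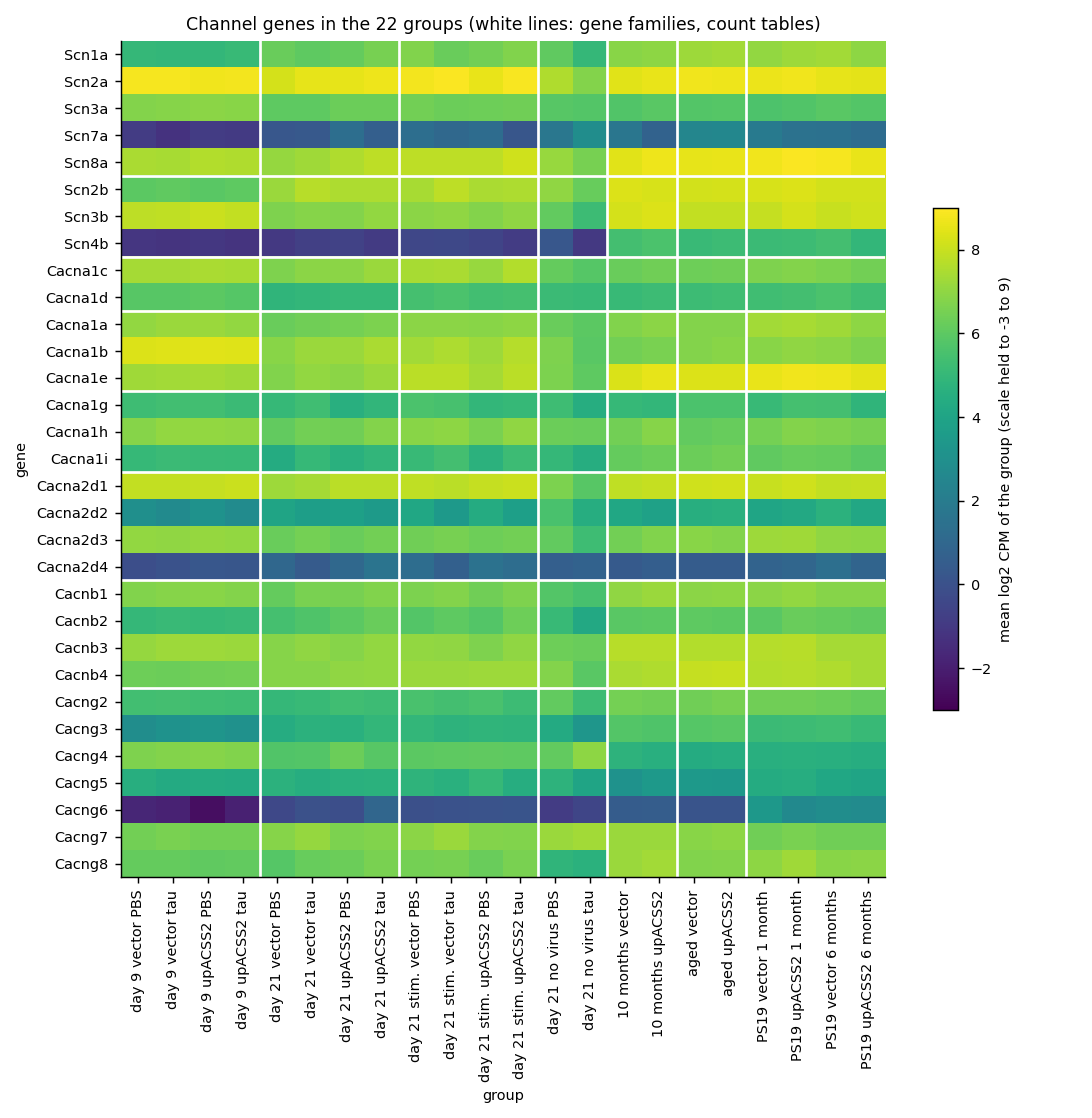
Heat map of the mean log2 CPM of 31 of the 32 genes (rows, by family) in the 22 groups (columns, by count table); the tables were scaled separately. Scn2a is among the brightest rows except in cultures without virus, Cacna1b is brightest at culture day 9, Scn4b is dark in cultures and brighter in mice, and Scn7a, Cacna2d4 and Cacng6 are among the darkest rows, with Cacng6 lighter in PS19 mice.

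Levels between genes were compared per kilobase of exon. At culture day 9 Scn3b had a median of 43.6 CPM per kb and lay in every library above Cacnb3 (36.6), Scn2a (35.3) and Cacna1b (34.8), whose ranges overlap, while its range (40.2 to 48.2) overlapped that of Cacng7 (33.6 to 40.8). At day 21 Cacng7 (44.9) and Scn2b (40.1) had overlapping ranges. In cultures without virus the median of Cacng7 was 57.5 CPM per kb. In the 3 sets of mice Scn2b had medians of 63.3 to 69.2 CPM per kb. Scn7a, Cacna2d4 and, outside PS19 mice, Cacng6 stayed under 1 CPM per kb in the median of every set. Scn4b, the beta subunit tied to resurgent sodium current, was also under 1 CPM per kb in every culture set.

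Between culture days 9 and 21 channel genes changed in both directions in the RNA of the cultures. In cultures with vector and PBS, 10 of the 32 genes rose and 13 fell, beside 57.2% of all 15040 genes tested called in either direction (30.4% higher, 26.8% lower), so a call by itself sets no channel gene apart. With vector and hAD-tau 10 rose and 8 fell (52.1% of all genes called, 27.5% higher and 24.6% lower), with upACSS2 and PBS 10 rose and 11 fell (53.8%, 28.2% higher and 25.6% lower), and with upACSS2 and hAD-tau 11 rose and 7 fell (53%, 27% higher and 26% lower). The tests were edgeR's quasi-likelihood tests with Benjamini-Hochberg adjustment over all genes, called at an adjusted p under 0.05, in 1 fit of the 24 resting libraries. The median log2 change of the 32 was -0.28, -0.10, -0.12 and -0.05 in these 4 conditions, beside 0.05, 0.05, 0.03 and 0.01 over all genes. In all 4 conditions 8 genes rose (Scn1a, Scn2b, Cacna2d2, Cacnb2, Cacnb4, Cacng3 and Cacng6 among them) and 7 fell in all 4 (Scn3a, Scn3b, Cacna1a, Cacna1b, Cacna1d, Cacna2d3, Cacng4). The 4 conditions use different libraries. No gene rose in 1 condition and fell in another. Without regard to condition, 7 genes had all 12 day 21 libraries above all 12 day 9 libraries (14.9% of all genes did), and 7 had all 12 below (16.1% of all genes).

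**Figure D2:**
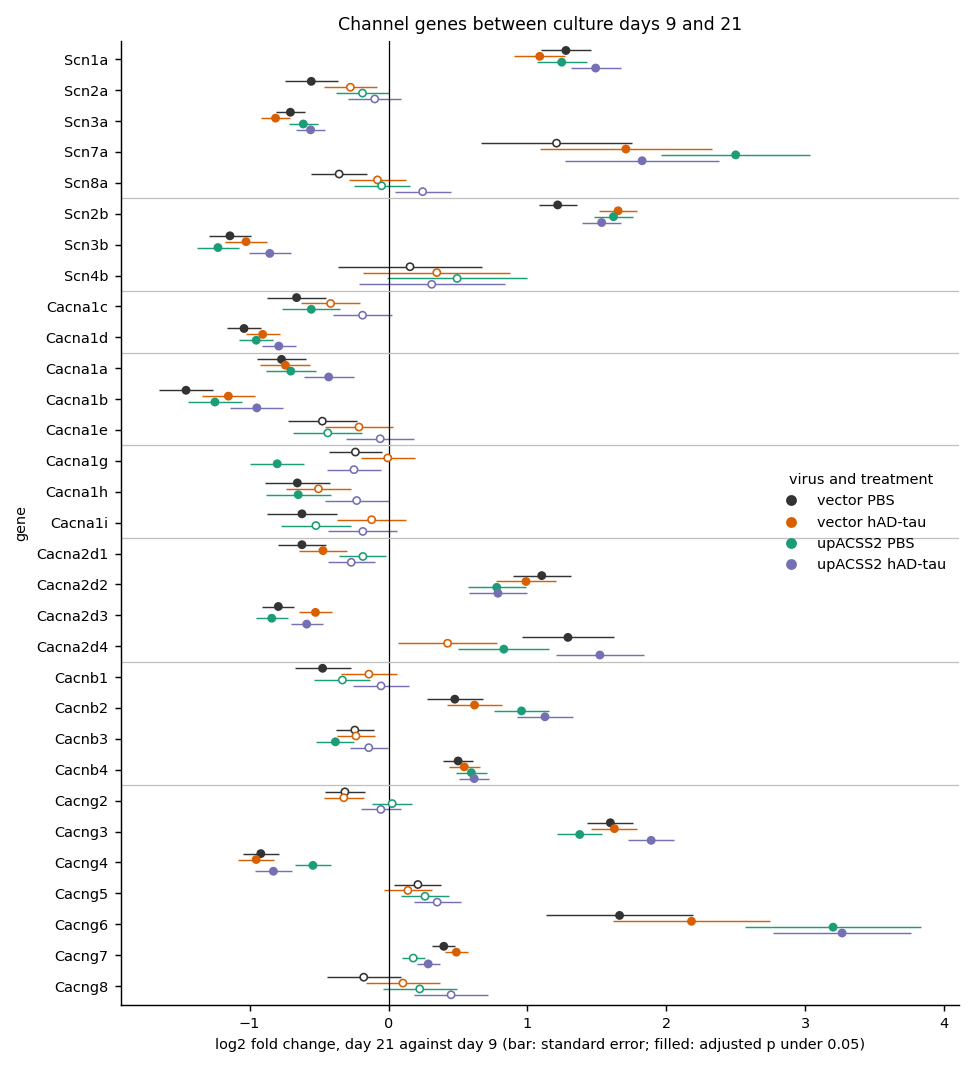
Log2 fold change, day 21 against day 9, of 31 of the 32 genes (rows, by family) in the 4 combinations of virus and treatment (colours), with standard errors as bars; filled points have an adjusted p under 0.05. Scn1a, Scn2b and Cacng3 lie to the right of 1 in all 4 conditions, and Cacna1b lies near -1 or below.

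Among the sodium channel pores, Scn1a rose and Scn3a fell. Scn1a was at 25.2 CPM in the lowest, 31.1 in the median and 36.8 in the highest of the 12 day 9 libraries, and at 49.2, 74.4 and 107 at day 21. All day 21 libraries were above all day 9 libraries, and the log2 change was 1.28 ± 0.18 (SE, n = 3 and 3 libraries) with vector and PBS (adjusted p = 5.47e-06) and 1.09, 1.25 and 1.49 in the other 3 conditions. Scn3a, the pore of the embryonic brain, went from 104, 115 and 126 CPM (lowest, median, highest) to 54.8, 74.3 and 88.8. Its groups did not overlap either, and its log2 change was -0.71 ± 0.10 with vector and PBS (adjusted p = 7.84e-06) and -0.81, -0.61 and -0.56 elsewhere. Scn2a, the most abundant pore, stood at a median of 449.7 CPM at day 9 and 381 at day 21 with overlapping libraries, and passed the test in 1 of 4 conditions (vector and PBS, log2 change -0.56 ± 0.19, adjusted p = 0.0172). Scn8a was not called in any condition, with medians of 185 and 188 CPM. Scn7a, the atypical sodium-sensing member, passed in 3 conditions from levels of 0.215 to 0.736 CPM at day 9, too low for a firm fold: with vector and hAD-tau its call was lost without day 21 replicate 1 or day 9 replicates 2 or 3 (adjusted p 0.0887 to 0.1).

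Of the sodium channel beta subunits, Scn2b rose and Scn3b fell. Scn2b, which is linked to the pore by a disulfide bond, went from 58.7, 62.6 and 70.2 CPM (lowest, median, highest of 12) at day 9 to 121, 186 and 246 at day 21. Scn3b, its non-covalent counterpart, went the other way, from 219, 238 and 263 CPM to 82.3, 118 and 144. Neither gene's days overlapped. With vector and PBS the log2 changes were 1.22 ± 0.14 for Scn2b (adjusted p = 3.27e-07) and -1.14 ± 0.15 for Scn3b (adjusted p = 2.61e-06), and with vector and hAD-tau 1.65 and -1.03. Scn4b was not called, at 0.118 to 0.716 CPM on day 9 and 0.171 to 0.75 on day 21.

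**Figure D3:**
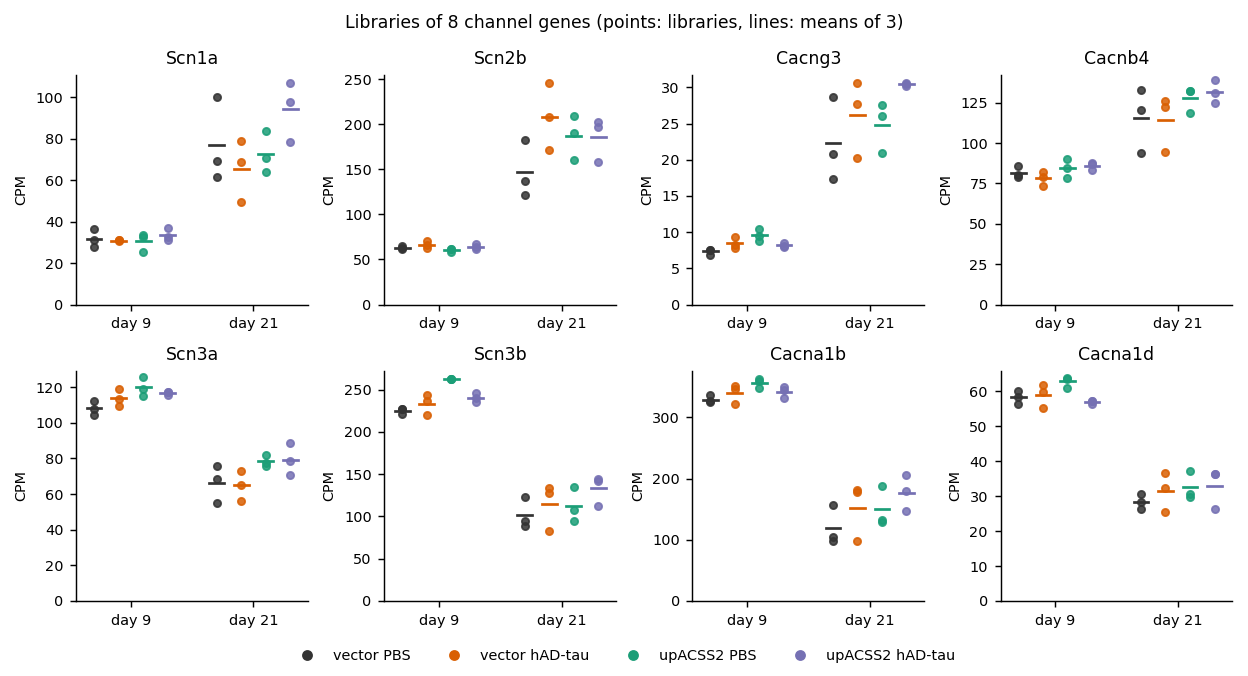
CPM of 8 channel genes in the 24 resting culture libraries (points; lines are means of 3), by culture day and by virus and treatment (colours). Scn1a, Scn2b, Cacng3 and Cacnb4 (upper row) are higher at day 21 in all libraries, and Scn3a, Scn3b, Cacna1b and Cacna1d (lower row) are lower in all, with a wider spread among day 21 than among day 9 libraries.

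None of the 8 calcium channel pores rose in any condition, and 3 fell in all 4. Cacna1b, the N type pore, fell the most of them: from 322, 346 and 363 CPM (lowest, median, highest) at day 9 to 98.4, 151 and 205 at day 21, a log2 change of -1.46 ± 0.19 with vector and PBS (adjusted p = 2.59e-06) and of -1.15, -1.25 and -0.95 in the other conditions. Cacna1d, an L type pore that opens at lower voltages than Cacna1c, went from 55.3, 59.3 and 64.0 CPM to 25.4, 30.6 and 37.3, by -1.04 ± 0.12 with vector and PBS (adjusted p = 4.8e-07). Cacna1a, the P/Q type pore, went from 128, 139 and 156 CPM to 58.7, 92.6 and 109, by -0.77 ± 0.18 (adjusted p = 0.00108), and by -0.43 ± 0.18 with upACSS2 and hAD-tau, just past the threshold (adjusted p = 0.0482). In these 3 genes no day 21 library reached the lowest day 9 library. Cacna1c and the T type pores Cacna1g, Cacna1h and Cacna1i fell in 1 or 2 of the 4 conditions, with overlapping days. Cacna1e, the R type pore, was called in none, at a median of 158 CPM at day 9 and 135 at day 21.

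Of the alpha2delta subunits, the binding sites of gabapentin-like drugs among them, Cacna2d2 rose and Cacna2d3 fell in all 4 conditions. Cacna2d2 went from 6.10, 7.20 and 8.58 CPM (lowest, median, highest) to 10.0, 12.7 and 24.6, by 1.10 ± 0.21 with vector and PBS (adjusted p = 0.000134), and by 0.69, still called, without day 21 replicate 3. Cacna2d3 went from 124, 132 and 143 CPM to 64.7, 80.7 and 102, by -0.79 ± 0.12 (adjusted p = 8.42e-06). Again no library of 1 day reached the other day. Cacna2d1, the most abundant of the 4, fell in both vector conditions (-0.62 ± 0.17, adjusted p = 0.00377, with PBS), and Cacna2d4 rose in 3 conditions from about 1 CPM.

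Of the calcium channel beta genes, 2 rose in all 4 conditions. Cacnb4 went from 73.5, 82.7 and 90.3 CPM (lowest, median, highest) to 94.0, 125 and 139, by 0.50 ± 0.11 with vector and PBS (adjusted p = 0.000591) and 0.62 with upACSS2 and hAD-tau. Cacnb2 went from 30.3, 34.2 and 37.0 CPM to 33.5, 60.9 and 84.7, with some overlap, by 0.48 ± 0.20 with vector and PBS (adjusted p = 0.047) and 1.13 ± 0.20 with upACSS2 and hAD-tau (adjusted p = 8.29e-05). Cacnb1 and Cacnb3 fell in 1 condition each.

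Among the gamma genes, Cacng3 and Cacng4 changed in opposite directions. The TARP gene Cacng3 went from 6.90, 8.15 and 10.4 CPM (lowest, median, highest) at day 9 to 17.3, 27.6 and 30.6 at day 21, by 1.60 ± 0.16 with vector and PBS (adjusted p = 9.45e-08) and 1.89 with upACSS2 and hAD-tau. Cacng4, a TARP of immature neurons and glia, went from 100.1, 107 and 122 CPM to 46.3, 61.3 and 87.9, by -0.92 ± 0.13 (adjusted p = 5.93e-06). Day 9 and day 21 libraries did not overlap in either. Cacng2 (stargazin), Cacng5 and Cacng8 were not called in any condition, and Cacng7 rose in 3 of 4 (0.40 ± 0.08 with vector and PBS, adjusted p = 0.000342). Cacng6 was called in all 4 conditions but from 0 to 0.358 CPM at day 9 to 0.428 to 2.23 at day 21, and with vector and PBS the call was lost without day 21 replicate 1 (log2 change 1.11, adjusted p = 0.0771).

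Genes that act on the channels were taken as a list of 26: ankyrins and spectrin, FGF homologous factors, calmodulins, RGK proteins, STAC adaptors, release-site scaffolds and the NALCN complex. In the 4 conditions (vector PBS, vector hAD-tau, upACSS2 PBS, upACSS2 hAD-tau) 5, 8, 6 and 7 of them rose and 10, 8, 9 and 8 fell. Of all genes tested, 57.2%, 52.1%, 53.8% and 53% were called in either direction, so a call by itself sets no partner gene apart. Stac, an adaptor of L type channels, fell in all 4 (-2.69 ± 0.24 with vector and PBS, adjusted p = 1.53e-08), while its relative Stac2 rose in all 4 (1.96 ± 0.37, adjusted p = 0.000134). Of the RGK proteins, which hold back calcium channels, Gem rose by 2.29 ± 0.35 (adjusted p = 1.21e-05) and Rrad by 2.20 ± 0.43 (adjusted p = 0.000221) with vector and PBS, and Rem2 rose by 2.83 ± 0.47 with vector and hAD-tau (adjusted p = 4.14e-05). Rrad was at 0.215 to 0.724 CPM at day 9, too low for a firm fold, and at 0.5 to 2.93 CPM at day 21, with overlap. Ank2, Ank3 and Fgf13, chosen after their values were seen, also fell in all 4 conditions, with vector and PBS by -0.91 ± 0.12, -0.93 ± 0.17 and -1.54 ± 0.21. Ank3 encodes the anchor of sodium channels at the initial segment, and Fgf13 binds the sodium channel tail.

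Cell type markers moved with the culture day, and their part in these changes was not tested. The summed level of 5 neuron markers was 5468 to 6183 CPM at day 9 and 2989 to 4683 at day 21, the fall being in Map2 and Tubb3. The medians of the other neuron markers were higher at day 21: Rbfox3 went from 132 to 171 CPM, Snap25 from 688 to 1278 and Syt1 from 886 to 1219. The sum therefore does not describe all 5 markers. All 6 interneuron markers passed as higher in every condition, their sum going from 546 to 682 CPM at day 9 to 1047 to 1738 at day 21. The 7 astrocyte markers summed to 1022 to 1419 CPM at day 9 and 2161 to 17032 at day 21, with 4 or 7 called higher. All 5 oligodendrocyte precursor markers were called higher in every condition, their sum going from 157 to 298 CPM to 846 to 1730. In bulk RNA, fewer cells of a type and less RNA per cell cannot be told apart.

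Shares were also taken within each family, which removes only the changes common to all its members. The part of cell makeup in these shares was not tested. Per kilobase, Scn2a made 59.7% ± 1.55 (SD, n = 12 libraries) of the summed sodium pore level at day 9 and 54.4% ± 3.34 at day 21, and Scn8a 19.8% ± 1.07 and 21.0% ± 2.09. Scn1a went from 4.80% ± 0.37 to 13.1% ± 2.30, with the day 9 libraries at 4.13% to 5.45% and the day 21 libraries at 10.4% to 17.9%. The share of Scn3a went from 15.6% ± 0.76 to 11.02% ± 1.43. Of the 8 calcium pores together, Cacna1b made 39.9% ± 0.71 at day 9 and 29.1% ± 1.33 at day 21, and Cacna1e 7.37% ± 0.41 and 9.96% ± 0.68. Within the gamma genes Cacng4 went from 26.8% ± 1.24 to 14.7% ± 3.77 and Cacng3 from 2.68% ± 0.30 to 7.70% ± 0.95.

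No test was made across separately scaled tables. Side by side with these resting cultures with virus, the mouse hippocampus had larger mean shares of Scn1a (15.8% to 18.5% over the 3 mouse sets) and Scn8a (31.4% to 36.6%). Its mean shares of Scn3a were smaller (5.79% to 6.73%). Single Scn1a values overlapped, reaching 17.9% in day 21 vector PBS cultures and going down to 11.63% in 10-month upACSS2 mice. In day 21 cultures without virus the mean Scn1a share was 17.03% with PBS and 12.51% with hAD-tau. The mean Scn3a share there was 13.14% and 19.26%. Cacna1b made 15.1% to 18.4% of the calcium pores in mice and Cacna1e 21.2% to 22.9%. Cacng4 made 4.18% to 4.95% of the gamma genes and Cacng3 10.1% to 15.1%. Cultures and hippocampus differ in strain, age and cell makeup, which cannot be told apart.

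**Figure D4:**
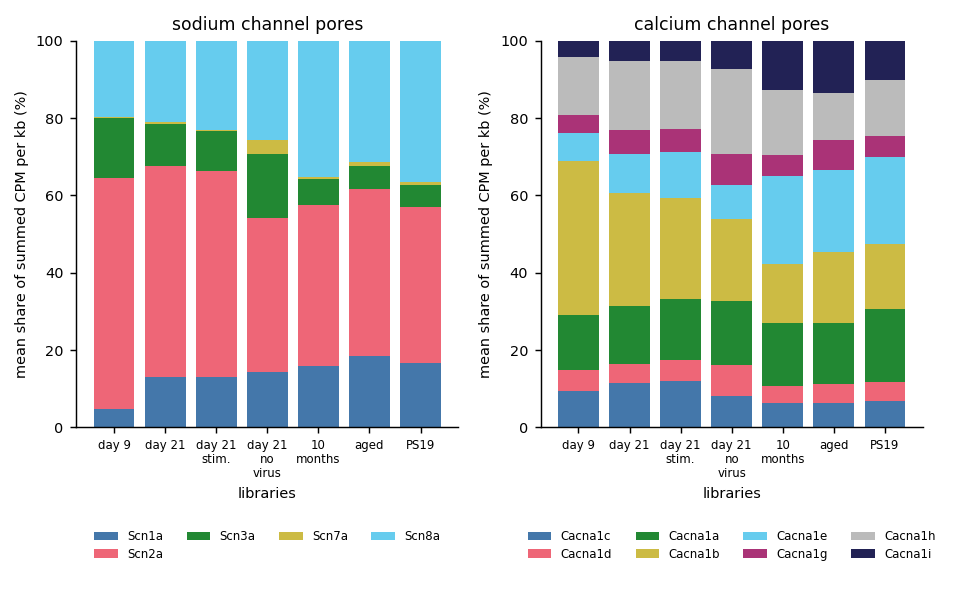
Stacked bars of the mean share (%) of each gene in the summed CPM per kb of its family, for sodium channel pores and calcium channel pores, in culture day 9, day 21, stimulated day 21, day 21 without virus, and 10-month, aged and PS19 mice. In resting cultures with virus the Scn1a share is 4.80% at day 9 and 13.1% at day 21, and in mice it is 15.8% to 18.5%. The Cacna1b share is 39.9%, 29.1% and 15.1% to 18.4% in the same order.

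Whether the day effects differed between the viruses was tested in PBS cultures. Of the 32 genes, 0 passed the test of the interaction of culture day and virus by edgeR (0.0399% of all genes did; 1 channel gene and 12.7% of all genes had an unadjusted p under 0.05).

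At day 9, 4 channel genes were higher with upACSS2 than with vector in PBS cultures and 0 were lower, beside 9.47% of all genes called in either direction, 4.61% higher and 4.87% lower. The median log2 difference of the 32 was 0.08, and of all genes -0.00. Scn3b was at 263.2, 262.7 and 263.0 CPM with upACSS2 against 221, 227 and 227 with vector, a log2 difference of 0.22 ± 0.04 (adjusted p = 0.00191 by edgeR's quasi-likelihood test in the 12 day 9 libraries). This call held without any 1 library. Cacng3 was at 8.82, 9.50 and 10.4 CPM against 6.90, 7.60 and 7.57 (0.38 ± 0.10, adjusted p = 0.0188), Cacna1h at 125, 146 and 131 CPM against 117, 109 and 115 (0.23 ± 0.06, adjusted p = 0.0174), and Scn3a at 126, 115 and 119 CPM against 108, 104 and 112 (0.14 ± 0.04, adjusted p = 0.0415). In each of the 4 the upACSS2 libraries lay above all vector libraries, by small margins. The Cacng3 call was lost without upACSS2 replicate 2 or 3 or vector replicate 1 (adjusted p = 0.0539, 0.0902 and 0.127), that of Cacna1h without upACSS2 or vector replicate 2 (adjusted p = 0.12 and 0.0666), and that of Scn3a without any 1 of the 6 libraries compared except vector replicate 3 (adjusted p 0.0553 to 0.207). The count was 1 without upACSS2 replicate 2 and 2 without vector replicate 1 or 2. In a fit over all 24 resting libraries, whose spread is dominated by day 21, 0 passed. Of 5 neuron markers 3 were called higher and Snap25 lower: their sum was 5986 to 6183 CPM with upACSS2 and 5468 to 5567 with vector, and 4 of 5 oligodendrocyte precursor markers and all 4 progenitor markers were called lower; their part was not tested. Of the 26 partner genes Ank2 (0.20 ± 0.05, adjusted p = 0.0141) and Ank3 (0.15 ± 0.05, adjusted p = 0.0494) were higher, and Cabp1 (-0.27 ± 0.07, adjusted p = 0.0204) and Calm2 (-0.22 ± 0.04, adjusted p = 0.00204) lower.

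In day 9 cultures with hAD-tau, 0 channel genes passed between upACSS2 and vector (0.612% of all genes called, 0.299% higher and 0.312% lower; 7 channel genes and 12.1% of all at an unadjusted p under 0.05). The values of the genes named above were then 240, 247 and 236 CPM for Scn3b with upACSS2 against 236, 244 and 219.5 with vector, so those libraries overlapped. The lowest unadjusted p were those of Cacng7, at 86.6 ± 4.01 CPM with upACSS2 and 97.0 ± 2.66 with vector (adjusted p = 0.0815), Cacna1g, at 36.0 ± 1.57 and 41.5 ± 0.663 (adjusted p = 0.14), and Cacna2d1, at 260.5 ± 10.7 and 240.1 ± 5.19 (adjusted p = 0.185). Whether the virus difference itself changed with hAD-tau was not tested at day 9.

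For hAD-tau against PBS at day 9 with vector, 1 channel gene passed, Cacna1h (4.01% of all genes called, 1.91% higher and 2.1% lower). The T type pore stood at 146, 131 and 120.3 CPM with hAD-tau against 117, 109 and 115 with PBS, a log2 difference of 0.22 ± 0.06 (adjusted p = 0.0402 by edgeR). Those vector PBS libraries also serve as the controls of the virus comparison above. The call was lost without vector PBS replicate 1, 2 or 3 or hAD-tau replicate 2 (adjusted p 0.0596 to 0.125) and without hAD-tau replicate 1, where the difference was 0.14 (adjusted p = 0.249). Without hAD-tau replicate 3, 3 genes passed, with Cacnb3 (0.17, adjusted p = 0.0157) and Cacng7 (0.17, adjusted p = 0.0315) added. With upACSS2, 0 passed for hAD-tau against PBS (0.326% of all genes; 7 channel genes and 8.9% of all unadjusted), and Cacna1h was at 132, 131.5 and 128 CPM against 125, 146 and 131, with overlap. The lowest unadjusted p there was that of Cacna2d2, at 6.71 ± 0.112 CPM with hAD-tau and 8.56 ± 0.0194 with PBS (adjusted p = 0.125), followed by Scn3b (241 ± 5.49 and 263 ± 0.216 CPM) and Cacna1g (36.0 ± 1.57 and 41.7 ± 3.35 CPM), each with separate groups. All 4 progenitor markers and 3 of 5 precursor markers were lower with hAD-tau under vector, and their part was not tested.

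At day 21 no channel gene passed any of the 4 resting comparisons by edgeR: upACSS2 against vector with PBS (0.0133% of all genes called) and with hAD-tau (0.0266%), and hAD-tau against PBS with vector (0%) and with upACSS2 (0%). The counts at an unadjusted p under 0.05 were 3, 5, 2 and 2, beside 16.5%, 10.6%, 9.36% and 6.33% of all genes. Cacng4 came nearest for the virus in PBS, at 78.3 ± 8.34 CPM with upACSS2 and 54.3 ± 8.94 with vector (adjusted p = 0.207), and Cacna2d4 in hAD-tau, at 3.05 ± 1.05 and 1.27 ± 0.306 CPM (adjusted p = 0.29). For hAD-tau, Scn2b came nearest with vector, at 208 ± 37.1 CPM against 147 ± 31.7 with PBS (adjusted p = 0.529), and Cacng6 with upACSS2, at 1.89 ± 0.314 against 0.839 ± 0.153 CPM (adjusted p = 0.743). The medians over the 32 genes were 0.21, 0.21, 0.23 and 0.22, beside -0.00, 0.01, -0.01 and 0.00 over all genes, with pairs of comparisons sharing libraries. Libraries of 1 group varied widely at day 21: Scn8a was at 194, 115 and 111 CPM in the 3 vector PBS libraries and 182, 105 and 204 with vector and hAD-tau. The ribosomal RNA gene Rn45s held 10.98% of counts in vector PBS replicate 2, against 0.887% and 0.561% in replicates 1 and 3. It held 7.933% in upACSS2 PBS replicate 1 and 4.102% in vector hAD-tau replicate 2. The other resting day 21 libraries were at 1.89% or less. The summed neuron markers ranged from 2989 to 4409 CPM with vector and PBS and from 3136 to 4336 with vector and hAD-tau. The astrocyte sums ranged from 3374 to 17032 CPM and from 2161 to 4289. The part of Rn45s and of these markers in this spread was not tested. The biological coefficient of variation was 0.189 at day 21 against 0.042 at day 9. No channel gene passed the interaction of tau and virus at day 21 (0% of all genes; 1 channel gene and 8.28% of all unadjusted). With the spread pooled over both days, Cacng4 passed as higher with upACSS2 in PBS (0.53, adjusted p = 0.0185), and Cacna2d4 as higher (1.26, adjusted p = 0.0287) and Cacng7 as lower (-0.37, adjusted p = 0.0192) in hAD-tau.

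**Figure D5:**
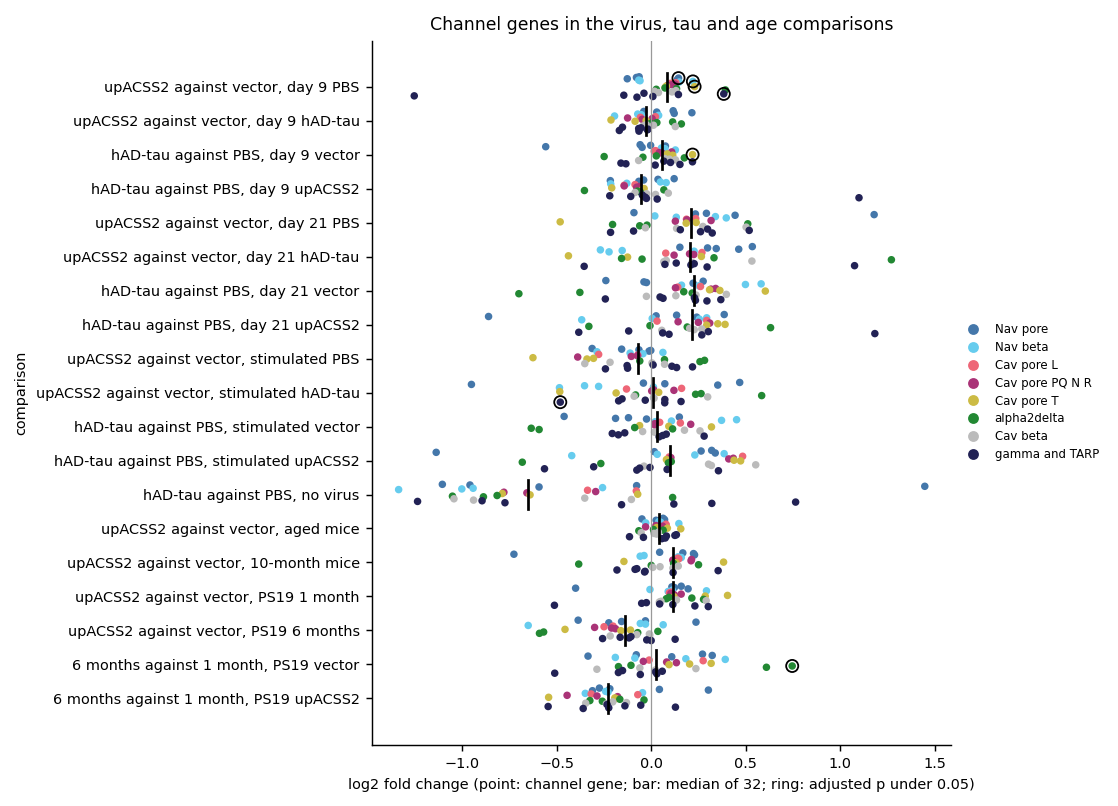
Log2 fold changes of the 32 channel genes (points, coloured by family) in the 19 comparisons of virus, tau and age (rows), with the median of the 32 as a black bar and a ring around genes with an adjusted p under 0.05. Rings are on 4 genes for upACSS2 in PBS at day 9, on 1 gene each for hAD-tau at day 9, upACSS2 in stimulated hAD-tau cultures and PS19 age with vector, and the median is lowest, -0.65, for hAD-tau without virus.

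In stimulated day 21 cultures the 1 channel gene that passed was Cacng7, which was lower with upACSS2 than with vector in hAD-tau (0.932% of all genes called, 0.393% higher and 0.539% lower; 0 channel genes passed in PBS, where 0.186% of all did, 0.0866% higher and 0.0999% lower, and 5 channel genes and 15.8% of all genes had an unadjusted p under 0.05). The gene encodes a gamma subunit that acts on AMPA receptors. Its libraries were at 103, 105 and 107 CPM with upACSS2 and hAD-tau, 139, 141 and 159 with vector and hAD-tau, 110.0, 118 and 104 with upACSS2 and PBS, and 123, 120.4 and 119 with vector and PBS. The difference in hAD-tau was -0.48 ± 0.07 (adjusted p = 0.0194 by edgeR), and the call rested on nearly every library: it was lost without upACSS2 replicate 1, 2 or 3 or vector replicate 1 or 3 (adjusted p 0.0531 to 0.123), and without vector replicate 2 there were 2 calls. The interaction of virus and tau for Cacng7 was -0.36 with an unadjusted p of 0.00406 and an adjusted p of 0.236, so no difference from PBS cultures was shown. Resting day 21 cultures had 105.6 ± 2.51 CPM with upACSS2 and hAD-tau and 136 ± 13.6 with vector and hAD-tau, in separate libraries (-0.35, adjusted p = 0.314), and at day 9 the values were 86.6 ± 4.01 and 97.0 ± 2.66 (-0.17, adjusted p = 0.0815). Cacna1g, the T type pore, was lower with upACSS2 in both treatments without passing: 31.2 ± 6.08 CPM against 48.2 ± 5.74 in PBS (adjusted p = 0.0878) and 33.0 ± 2.70 against 46.2 ± 4.83 in hAD-tau (adjusted p = 0.0977), in groups that did not overlap. In hAD-tau the summed astrocyte markers were also higher with upACSS2 (5334 to 5738 CPM) than with vector (1322 to 3112), as were the interneuron markers (1300.0 to 1731 against 1027 to 1118). Of these, 0 of 7 and 2 of 6 (Gad2 and Sst) were called, and their part was not tested.

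For hAD-tau against PBS in stimulated cultures, 0 channel genes passed with vector (3.01% of all genes, 1.26% higher and 1.75% lower; 5 channel genes and 24.2% of all unadjusted) and 0 with upACSS2 (0.206%; 15 channel genes and 14.2% of all unadjusted). With vector, Cacng7 was 0.28 ± 0.07 higher (adjusted p = 0.0529). With the replicate number as a block 2 channel genes passed, Cacng7 among them (adjusted p = 0.047), and without hAD-tau replicate 2 also 2 (Cacng7 adjusted p = 0.0375). With upACSS2, the calcium pores Cacna1b (204 ± 18.1 CPM with hAD-tau against 151 ± 13.5, adjusted p = 0.105) and Cacna1c (199 ± 13.9 against 142 ± 14.3, adjusted p = 0.115) did not overlap between the groups but missed the threshold. No channel gene passed the interaction of tau and virus (0% of all genes; 5 channel genes and 14.2% of all unadjusted). With vector the astrocyte sum was 1322 to 3112 CPM with hAD-tau and 4591 to 7543 with PBS, and the interneuron sum 1027 to 1118 and 1295 to 1663, with Gfap, Aldh1l1 and Sst called lower. With upACSS2 the excitatory neuron sum was 3709 to 4231 CPM with hAD-tau and 2409 to 3006 with PBS, with 0 of 4 markers called; the part of these was not tested.

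Stimulated and resting day 21 libraries stand in separate tables, so culture set and stimulation cannot be told apart and no test was made; the counts were scaled together for a side-by-side view. Fos, an early response gene, was at 22.0 to 80.7 CPM at rest and 1264 to 1703 after stimulation. Cacna1d, the L type pore, was the 1 channel gene with all 12 stimulated libraries (39.1, 46.0 and 51.1 CPM, lowest, median and highest) above all 12 resting ones (26.6, 31.8 and 38.7), which 1.33% of all genes also showed. By condition, 9 channel genes lay above and 0 below without overlap with vector and PBS (22.4% of all genes in either direction), 5 and 0 with vector and hAD-tau (17%), 2 and 0 with upACSS2 and PBS (25.4%), and 4 and 1 with upACSS2 and hAD-tau (21%). Cacna1c and Cacna1e were each above in 3 of the 4, as was Cacna1a. Cacna1e was at 116 ± 45.4 CPM at rest and 220 ± 33.3 stimulated with vector and PBS. In these 2 groups, each scaled within its own table, the neuron markers summed to 2989 to 4409 CPM at rest and 4183 to 4794 stimulated. The astrocyte markers summed to 3374 to 17032 and 4591 to 7543 CPM, and the part of these markers was not tested. Leaving out a library makes an overlap less likely for any gene, so each reduced count stands beside the share of all genes in the same split. With vector and PBS, 24 channel genes (75%) did not overlap without resting replicate 1, beside 45.1% of all genes, and 16 (50%) without stimulated replicate 2, beside 36.6%. With vector and hAD-tau the count was 13 (40.6%) without stimulated replicate 2, beside 26.5%, and 8 (25%) without resting replicate 1 or 3, beside 26.7% and 27.1%. With upACSS2 and PBS it was 10 (31.2%) without resting replicate 3, 9 without stimulated replicate 1, 6 without stimulated replicate 3 and 5 without resting replicate 1 or 2, beside 32% to 38.5% of all genes. With upACSS2 and hAD-tau it was 10 (31.2%) without resting replicate 1 or stimulated replicate 2, 9 without stimulated replicate 1 or 3 and 8 without resting replicate 3, beside 26.8% to 35.2%.

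In day 21 cultures without virus, 0 channel genes passed between hAD-tau and PBS by edgeR (0% of all genes), while 16 had an unadjusted p under 0.05 (13.9% of all genes did) and DESeq2 called 6, all lower with hAD-tau (2% of all genes called in either direction). The median log2 difference of the 32 was -0.65, beside 0.01 over all genes, and 5 of the 32 were positive. Cacna2d2 was at 20.4, 23.7, 29.9 and 17.8 CPM with hAD-tau against 50.9, 42.6 and 49.4 with PBS (-1.05 ± 0.18, adjusted p = 0.302). Cacng2, the stargazin gene, was at 34.6, 42.6, 38.4 and 35.2 CPM against 69.1, 53.4 and 87.8, and the T type pore Cacna1g at 20.5, 22.5, 27.2 and 20.4 CPM against 43.9, 33.4 and 40.3. The groups of these 3 genes did not overlap. The summed neuron markers were 1829 to 2334 CPM with hAD-tau and 2392 to 3699 with PBS, and the interneuron markers 516 to 1055 and 1129 to 2361. The excitatory neuron markers overlapped, at 1389 to 1757 CPM with hAD-tau and 905 to 1772 with PBS. Oligodendrocyte precursor markers were at 2429 to 4092 and 92.9 to 2107 CPM, and microglial markers at 11.6 to 193 and 18.6 to 95.3. The part of these markers was not tested. PBS replicate 3 stood apart, with the lowest precursor sum (92.9 CPM) and the highest Scn1a (107 CPM, against 60.1 and 49.4 in the other PBS libraries).

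In mice, upACSS2 and vector differed in no channel gene past the threshold: 0 of 32 in aged mice, in 10-month mice and in PS19 mice at 1 and 6 months by edgeR (0% of all genes in each), with 2, 1, 0 and 3 at an unadjusted p under 0.05 beside 5.59%, 8.56%, 3.07% and 14.1% of all genes. In aged mice the medians were 0.04 for the 32 and -0.00 for all genes, and Cacng2 had the lowest unadjusted p, at 92.0 ± 6.75 CPM with upACSS2 and 83.9 ± 6.57 with vector (n = 12 and 12 mice, adjusted p = 0.863 by edgeR), followed by Cacna1i, at 87.4 ± 8.56 and 78.4 ± 6.98 CPM, both with overlap. In 10-month mice Cacna1h was at 80.6 to 150 CPM in 6 upACSS2 mice and at 79.0 to 95.9 in 5 vector mice, with overlap (adjusted p = 0.538 by edgeR, n = 6 and 5). In PS19 mice at 1 month Cacnb2 came nearest, at 75.6 ± 7.64 CPM with upACSS2 and 61.8 ± 8.35 with vector (adjusted p = 0.962). In PS19 mice at 6 months Cacna2d2 had the lowest unadjusted p by edgeR, followed by Scn1a and Scn4b. Scn1a was at 136, 134, 110, 122 and 124 CPM with upACSS2 and 122, 158, 238, 156 and 145 with vector. Scn4b was at 24.2 to 42.8 against 25.8 to 92.2 CPM. Both overlapped. The levels of the virus's own gene, Acss2, also overlapped between the viruses at 6 months (45.5 to 236 CPM against 43.0 to 55.7).

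Between 1 and 6 months after injection, 1 channel gene passed in PS19 mice with vector, Cacna2d2 (7.24% of all genes called). It was at 15.9, 12.6, 18.5, 16.9 and 18.5 CPM at 1 month and at 16.4, 21.4, 30.5, 46.5 and 23.3 at 6 months, with 1 older mouse inside the younger range (0.75 ± 0.21, adjusted p = 0.0386 by edgeR). Without 6-month replicate 4 the difference was 0.48 (adjusted p = 0.12), and that mouse also had the highest Tcf7l2, a thalamic marker, at 61.8 CPM; the part of adjoining tissue was not tested. The call was lost as well without 6-month replicate 3 (adjusted p = 0.073) or 1-month replicate 1, 2, 3 or 4 (0.054 to 0.101). With upACSS2, 0 passed (0.0414% of all genes; 5 channel genes and 13.4% of all unadjusted), with a median of -0.23 over the 32 and 0.02 over all genes. Cacnb3, Cacna1a and Scn2b, in that order, had the lowest unadjusted p there. The groups of Scn2b did not overlap, at 353, 326, 328, 360 and 313 CPM at 1 month against 309, 299, 244, 276 and 305 at 6 months. The younger group was labelled whole hippocampus. No channel gene passed the interaction of virus and time (0% of all genes; 3 channel genes and 11.9% of all unadjusted).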

How the data were processed

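Gene counts from bulk RNA sequencing were taken from 6 tables as the authors deposited them. Per the submitters' processing notes STAR, featureCounts, HTSeq and DESeq2 were used with the mm10 build, with no role given for each. In the table of cultures without virus, a row that names no gene held 6.13% to 8.74% of counts and was left out. Genes with at least 10 counts in at least 3 libraries of a table were tested with edgeR 4.0.16 (quasi-likelihood test, TMM scaling, R 4.3.3), with Benjamini-Hochberg adjustment over all of them and a threshold of 0.05. Standard errors were derived from the fold change and its F value. CPM are TMM-scaled. Depth was 5075099 to 39985460 counts per library. Fits used the 24 resting libraries for culture day and otherwise the libraries of 1 day or table. Any member may be named. Values are given for up to 8 members called with the largest change in a comparison or, under 3 calls, for members of lowest p, and up to 4 of the 26 partner genes called are named; others were chosen after their values were seen. The members and gene lists were chosen with earlier results of these data known. The procedure was tested on simulated data. Changes of 1 on the log2 scale were recovered for 96% of the changed genes for culture day, 84% at day 21 and 33% without virus. Only well-counted genes were changed, and all genes were given the same spread. The rates therefore do not cover members of low count or of wider spread. Replicate numbers paired the libraries (every correlation of deviations over 0.1) for upACSS2 against vector in stimulated hAD-tau cultures (0.113 to 0.354), hAD-tau against PBS in stimulated vector cultures (0.12 to 0.321) and hAD-tau against PBS without virus (0.219 to 0.395). Alternatives were DESeq2 1.42.0, voom in limma 3.58.1, other size factors and filters, only the 2 groups compared, a replicate block and leaving out each library. Some members are not reported here individually, although counts over the 32 include them.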

Additional observations from a re-analysis of the deposited data

Results flagged for a closer look

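Single mice stood apart from the other 4 of their group by Dixon's criterion in 3 of 37 gene and group checks, where chance alone marks about 1 in 20. Cacna1g, a T type pore that is abundant in thalamus, was at 79.1 CPM in replicate 4 of the PS19 upACSS2 group at 1 month, against 32.7 to 43.3 in the other mice. That library also held 46.7 CPM of the thalamic marker Tcf7l2, and the part of adjoining tissue was not tested. Cacna1g was likewise high in replicate 4 of the PS19 vector group at 1 month, at 47.4 CPM against 29.2 to 34.1. Cacnb3 was at 289.8 CPM in replicate 3 of the PS19 upACSS2 group at 1 month, against 174 to 205 in the other mice.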

How the results depend on the processing

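The counts of channel genes that rose or fell between culture days stayed within 1.5 times under every alternative run, and no named gene reversed its direction under any. Counts of called genes moved elsewhere. For upACSS2 at day 9 in PBS the count was 4, 0 in the fit of all 24 resting libraries and 7 with no filter on low counts. For hAD-tau at day 9 with vector it was 1, and 0 with all 24 libraries, with only the 2 groups compared or with voom. At day 21 the fit of all 24 libraries gave 1 for upACSS2 in PBS and 2 in hAD-tau. In stimulated cultures DESeq2 gave 1 for upACSS2 in PBS and 2 in hAD-tau, 3 for hAD-tau with vector and 3 with upACSS2. The replicate block gave 2 for hAD-tau with vector and 5 with upACSS2, where the numbers do not pair the libraries, and moved no other count of calls by over 1.5 times; for upACSS2 at day 9 in PBS the Scn3a call was lost (adjusted p = 0.0574 by edgeR). Without virus DESeq2 gave 6, and for PS19 age with vector the 2 groups alone gave 0. The cause was not tested. Leaving out 1 library gave 1 to 6 for upACSS2 at day 9 in PBS, 0 to 3 for hAD-tau at day 9 with vector, 0 to 2 for upACSS2 in stimulated hAD-tau cultures, 0 to 2 for hAD-tau in stimulated vector cultures and 0 to 1 for PS19 age with vector. For stimulated beside resting libraries, alternatives chosen after seeing the data, it gave 9 to 24 with vector and PBS, 5 to 13 with vector and hAD-tau, 3 to 10 with upACSS2 and PBS and 5 to 10 with upACSS2 and hAD-tau, beside 25.5% to 45.1%, 22.7% to 28.6%, 32% to 39.3% and 26.8% to 35.2% of all genes. Depth limits Scn7a, Scn4b, Cacng6 and Cacna2d4 at day 9, where they lay at 0 to 1.31 CPM.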

Other observations

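Cacng6 was at 1.64 to 14.5 CPM in the 20 PS19 mice. Cacng7 was at 138 CPM in the PS19 mouse with the least Cacng6 (upACSS2 at 1 month, replicate 3), the highest of the 20. That library is also the one flagged above for Cacnb3. Mitochondrial genes held 6.78% of its counts, against 3.84% to 4.36% in the other mice of its group. The pair was picked after the values were seen, and no relation between the 2 genes was tested.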
